A study of Mus musculus with 6 samples.

Results

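The genes described here are the protein-coding mouse genes whose symbol is Zfp followed by a number alone and whose mean level over all 6 heart libraries was at least 1 FPKM (fragments per kilobase of gene, scaled to the depth of the library). Of 365 such protein-coding symbols in the data, 218 reached that level and 147 did not, and 16 of the 365 were listed at 0 in every library. The level that chose the genes was the mean over both genotypes. Zfp873, at 1.01 FPKM, was the gene just inside the limit, and Zfp128, at 0.968 FPKM, was the one just outside it. Zfp symbols with a letter suffix, such as Zfp36l1, were left out by this rule and are described near the end.

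Messenger RNA was sequenced from whole hearts of 3 mice carrying floxed Ythdc1 alleles (Ythdc1flox/flox, called flox control) and of 3 mice with a conditional knockout of Ythdc1 (Ythdc1-CKO, called CKO; the series text writes HKO). YTHDC1 is the nuclear protein that reads N6-methyladenosine, a modified base of messenger RNA. Both groups received normal chow for 15 days. The labels describe independent biological replicates but give neither age, sex, nor the Cre driver that sets the cells of deletion.

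Zinc finger genes of this name mostly encode C2H2 proteins, in which tandem fingers, each folded around a zinc ion, bind DNA and are joined by a short conserved linker. Many carry a KRAB domain, which recruits the corepressor TRIM28 and, through it, the histone methyltransferase SETDB1 to silence transposons and other repeats. The KRAB genes lie in clusters that expanded by duplication and differ widely between mammals. Other genes of the same naming series bind RNA or act outside transcription.

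The libraries held 17434296 to 19360428 gene-assigned reads. CKO 3 stood apart in sex-linked transcripts, with 12.4 FPKM of Xist against at most 0.0155 in the others. The Y-linked gene Ddx3y measured 0.350 FPKM in CKO 3, against 10.8 to 15.9 FPKM in the other 5 libraries. This is the pattern of a female heart in CKO 3 and of male hearts in the others, so sex was not balanced between genotypes. CKO libraries resembled each other less (correlations of log2(FPKM + 1) of 0.955 to 0.977) than flox controls did (0.978 to 0.984). The 3 X-linked genes of the set, Zfp449, Zfp182 and Zfp275, did not pass the test by limma or voom, and 1 had an unadjusted p under 0.05. The targeted gene Ythdc1 measured 4.31, 3.64 and 4.10 FPKM in controls 1, 2 and 3, against 2.39, 2.57 and 2.34 FPKM in the CKO hearts. The groups did not overlap, with a log2 fold change of -0.54 (SE 0.09, limma adjusted p = 0.0150). Leaving out control 1 (adjusted p = 0.0707), control 3 (0.0637) or CKO 3 (0.0535) ended that call, as did the replicate number as a block (0.0542). Cardiomyocyte markers summed to 15821 to 19206 FPKM in the 3 controls, against 12375 to 16024 FPKM in CKO, so the tissue label was met in every library. Fibroblast markers summed to 295 to 402 and 393 to 535 FPKM, macrophage markers to 65.2 to 135 and 49.4 to 549 FPKM, and atrial markers to 153 to 395 and 547 to 2100 FPKM, in flox controls and CKO. Of the 4 atrial markers, Nppa was called higher and Sln lower, so the sum does not follow each marker. Among 7 cardiomyocyte markers 1 was called lower, and among 6 fibroblast markers 1 was called higher. Calls numbered 0 in the 5 macrophage, 5 endothelial and 5 pericyte and smooth muscle markers. Over all genes tested 11.2% were called. The part of these cell types in the results on Zfp genes was not tested. In whole tissue, fewer cells of a type and less RNA per cell cannot be told apart.

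Among the 218 expressed Zfp genes, 11 passed the test between genotypes, 6 of them higher and 5 lower in CKO hearts. On the log2(FPKM + 1) scale Zfp697, Zfp948 and Zfp568 rose most, and Zfp612 and Zfp970 fell most. By the ratio of means, with a pseudocount of 0.1 and by voom, the low and uncertain gene Zfp993 ranked second among the increases, above Zfp948 and Zfp568. The test was limma on log2(FPKM + 1) over all 12144 genes at or above the 1 FPKM limit, called at a Benjamini-Hochberg adjusted p under 0.05, and its fold changes understate those of low genes. The share called was 5.05% of the Zfp genes against 11.2% of all genes tested and 9.27% of the 4489 other protein-coding genes of like level (1 to 5 FPKM). Called higher were 2.75% of Zfp genes, 5.69% of all genes, 5.98% of the other protein-coding genes and 4.86% of those of like level. Called lower were 2.29%, 5.49%, 5.33% and 4.41% of the same sets. The Zfp shares cover all 218 genes, also those of 5 FPKM or more. Of the 167 Zfp genes of 1 to 5 FPKM, 2.99% were called, 1.2% higher and 1.8% lower. These shares are descriptions, and no test of their difference was made.

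The sequences below give the first finger of the linker-bearing repeat in 6 of the called genes, 3 higher and 3 lower, to show the unit that these proteins share. Each is 84 coding bases in GRCm38, written 5′ to 3′ on the gene's strand, with the 63 bases of the finger in lower case and the 21 bases of the linker and the start of the next finger in capitals. Zfp697 is shown from chr3:98427848-98427931 (plus strand), Zfp948 from chr17:21587193-21587276 (plus), Zfp568 from chr7:30022892-30022975 (plus), Zfp612 from chr8:110088925-110089008 (plus), Zfp970 from chr2:177475115-177475198 (plus) and Zfp629 from chr7:127612018-127612101 (minus).
Zfp697: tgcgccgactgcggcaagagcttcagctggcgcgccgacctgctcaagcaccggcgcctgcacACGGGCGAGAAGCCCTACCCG
Zfp948: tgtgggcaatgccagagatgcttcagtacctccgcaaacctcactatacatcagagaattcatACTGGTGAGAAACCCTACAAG
Zfp568: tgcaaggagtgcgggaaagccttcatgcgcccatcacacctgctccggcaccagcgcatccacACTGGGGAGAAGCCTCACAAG
Zfp612: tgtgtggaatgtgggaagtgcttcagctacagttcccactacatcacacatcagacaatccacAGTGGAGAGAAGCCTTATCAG
Zfp970: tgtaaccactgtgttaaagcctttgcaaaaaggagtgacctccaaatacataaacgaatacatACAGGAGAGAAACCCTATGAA
Zfp629: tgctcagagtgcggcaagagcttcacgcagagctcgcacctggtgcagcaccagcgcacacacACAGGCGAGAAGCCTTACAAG

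Among the 10 called genes that hold such a unit (Zfp292 has none), 45 pairs of units shared a median of 57.1% of their bases (39.3% to 73.8%). Over the linker the median was 71.4% (52.4% to 95.2%). The units were found by a pattern that requires the finger's cysteines and histidines and most linker residues. Part of this identity, above all in the linker, was therefore fixed by the search. Zfp697 and Zfp629, which changed in opposite directions, were among the closest pairs at 73.8% identity, as were Zfp629 and Zfp568.

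Zfp697 had the largest increase. The gene (GRCm38 chromosome 3, 98382461 to 98753812, plus strand) encodes a protein with 11 fingers and no KRAB pattern, described as an RNA-binding regulator of skeletal muscle remodelling. It measured 2.58, 1.84 and 2.38 FPKM in controls 1, 2 and 3, against 13.5, 10.1 and 11.7 FPKM in the CKO hearts, from 267 to 2009 reads per library. The lowest CKO library was far above the highest control, and the controls lay close together. Control hearts averaged 2.26 ± 0.384 FPKM and CKO hearts 11.8 ± 1.70 FPKM (SD, n = 3 each), a ratio of 5.20, with a log2 fold change of 1.97 (SE 0.13, limma adjusted p = 0.00293).

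Zfp948 is a KRAB gene with 15 fingers on chromosome 17, from 21567008 to 21588699 on the plus strand. Its level was 3.43, 4.49 and 3.67 FPKM in the 3 controls, against 9.79, 11.9 and 14.5 FPKM in the CKO hearts. The groups did not overlap, and the 3 CKO libraries spread more widely than the controls. The ratio of means was 3.13, with a log2 fold change of 1.42 (SE 0.15, limma adjusted p = 0.00607). Zfp697 and Zfp948 passed the test in every fit tried, each library left out included.

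Zfp568 is a KRAB gene (chromosome 7, 29983955 to 30028282, plus strand) known for silencing a placental transcript of the growth factor gene Igf2 in the embryo. It measured 4.38, 5.45 and 3.69 FPKM in the 3 controls, against 7.73, 14.5 and 11.3 FPKM in the CKO hearts, from 541 to 2072 reads. CKO 1 was the lowest of its group and lay nearest to the controls. The ratio of means was 2.48, with a log2 fold change of 1.12 (SE 0.22, limma adjusted p = 0.0275). The call ended without control 1 (adjusted p = 0.101), control 2 (0.0555), control 3 (0.0908), CKO 2 (0.0586) or CKO 3 (0.0798) and in a fit with no filter on low genes (0.0677), and was kept without CKO 1 (0.00889).

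Zfp993, a KRAB gene of the distal chromosome 4 cluster, measured 0.649, 0.402 and 0.511 FPKM in the 3 controls, against 1.66, 2.02 and 1.69 FPKM in the CKO hearts, from only 9 to 50 reads per library. The groups did not overlap, and the ratio of means was 3.43 (log2 fold change 0.88, SE 0.12, limma adjusted p = 0.0102). It is uncertain which gene the reads came from, because 71.9% of the 100-base windows of its exons also occur in other genes, among them Zfp991 and Zfp992. It also passed the level limit through CKO alone, so a difference was favoured by the choice of genes. It was called in every fit tried, each library left out included.

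Zfp292 and Zfp513 showed the smallest increases that passed. Zfp292, which encodes a very large zinc finger protein, measured 2.90, 2.11 and 2.83 FPKM in the 3 controls, against 3.59, 5.16 and 4.59 FPKM in the CKO hearts (log2 fold change 0.59, SE 0.14, limma adjusted p = 0.0476). Zfp513, whose human counterpart is linked to inherited retinal degeneration, measured 4.83, 4.94 and 4.68 FPKM in the 3 controls, against 6.37, 6.44 and 6.26 FPKM in the CKO hearts (log2 fold change 0.34, SE 0.07, limma adjusted p = 0.0307). Each gene's groups were separate, with Zfp513 nearly level within each group and Zfp292 more spread in CKO. For Zfp292 the call held without CKO 1 (adjusted p = 0.0242) and was lost without any of the other 5 libraries (0.105 to 0.127). It was also lost with the replicate block (0.110), no filter (0.113), no variance trend (0.0522) and each scaling, by the same sum (0.0968), total reads (0.0584) or upper quartile (0.0572). For Zfp513 it was lost without any 1 of the 6 libraries (0.0544 to 0.113), with the replicate block (0.0929), no filter (0.0594), same sum (0.155), total reads (0.0602) and voom (0.0569), and 6.58% of its exon bases lie opposite Snx17, which was expressed at 23.7 to 30.1 FPKM.

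**Figure D1:**
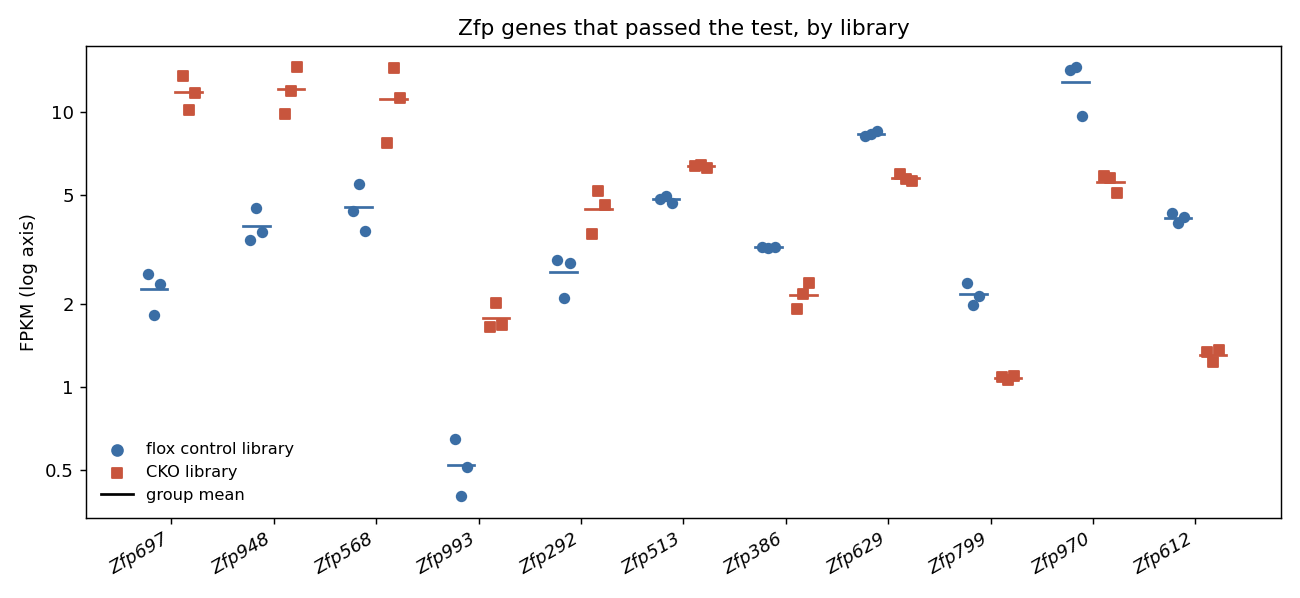
FPKM of the 11 Zfp genes past the test, side by side on a shared log axis, with 1 point per library and a bar at each group's mean. For every gene the 3 CKO points lie on 1 side of the 3 flox control points, from 10.1 to 13.5 against 1.84 to 2.58 FPKM in Zfp697 to 1.23 to 1.37 against 3.94 to 4.28 FPKM in Zfp612.

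Zfp612 had the largest decrease and the tightest groups among the large changes. It is a KRAB gene with 16 fingers on chromosome 8, from 110079746 to 110092741 on the plus strand. Its level was 4.28, 3.94 and 4.16 FPKM in the 3 controls, against 1.34, 1.23 and 1.37 FPKM in the CKO hearts, from 146 to 504 reads. Its CKO level was 0.318 of the control level and the groups were far apart. The log2 fold change was -1.15 (SE 0.08, limma adjusted p = 0.00293), and the gene was called in every fit tried, each library left out included.

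Zfp970, a KRAB gene of the distal chromosome 2 cluster with 14 fingers, measured 14.2, 14.5 and 9.65 FPKM in the 3 controls, against 5.85, 5.75 and 5.06 FPKM in the CKO hearts. Flox control 3 was the lowest control but still lay above every CKO library. The ratio of means was 0.434 (log2 fold change -1.06, SE 0.16, limma adjusted p = 0.0124), and the call ended without control 1 (0.0566). Of its 100-base windows 19.4% occur in other genes, which leaves its level uncertain, by an amount that was not tested. Gm14440 and Gm14288, genes paired with it by sequence or position, reached at most 0.0175 and 1.23 FPKM in any library.

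Zfp799, a KRAB gene of chromosome 17, measured 2.39, 1.99 and 2.15 FPKM in the 3 controls, against 1.09, 1.06 and 1.10 FPKM in the CKO hearts (log2 fold change -0.61, SE 0.10, limma adjusted p = 0.0149). Zfp629, with 19 fingers and no KRAB pattern, measured 8.15, 8.31 and 8.51 FPKM in the 3 controls, against 5.94, 5.72 and 5.62 FPKM in the CKO hearts (log2 fold change -0.46, SE 0.07, limma adjusted p = 0.0132). Zfp386, a KRAB gene of chromosome 12, measured 3.23, 3.20 and 3.23 FPKM in the 3 controls, against 1.92, 2.18 and 2.40 FPKM in the CKO hearts (log2 fold change -0.42, SE 0.09, limma adjusted p = 0.0340). All 3 genes had separate groups, and their CKO levels were 0.498, 0.692 and 0.672 of the control levels.

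Their calls were kept to different degrees when 1 library was left out. Such fits hold fewer samples, and calls over all genes then numbered 315 to 1490, against 1358 with all 6 libraries. A lost call therefore does not show that the difference came from that library. With 1 library left out, log2 fold changes were -0.648 to -0.557 in Zfp799, -0.484 to -0.449 in Zfp629 and -0.471 to -0.361 in Zfp386. Zfp799 did not pass without control 1 (adjusted p = 0.0733) or control 3 (0.0596) and with the replicate block (0.0533). Zfp629 was lost without flox control 1 (0.0592), flox control 3 (0.0600) or CKO 3 (0.05001, just above the threshold), with the replicate block (0.0543), and with all libraries scaled to the same sum (0.129). Zfp386 was lost without any 1 of the 6 libraries (0.0567 to 0.119), with the replicate block (0.0874), no filter (0.0878), same sum (0.164) and total reads (0.0576).

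As a class, the expressed Zfp genes had totals that overlapped between genotypes. Their FPKM summed to 890, 825 and 886 in flox controls 1, 2 and 3 and to 852, 855 and 868 in CKO 1, 2 and 3, with means of 866.8 ± 36.5 and 858.4 ± 8.92 (SD, n = 3 each). The groups overlap, and flox control 2 was the lowest of all. Reads on these genes were 0.416% to 0.484% of the total in flox controls and 0.423% to 0.485% in CKO.

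The median log2 fold change of the 218 genes was -0.05, with quartiles of -0.17 and 0.10, and 125 of them (57.3%) were negative. For the 167 Zfp genes below 5 FPKM the median was -0.04, and 56.3% were negative. Over other protein-coding genes of like level the median was 0.01, with quartiles of -0.15 and 0.18, and 49.1% were negative. The difference between the medians of all 218 Zfp genes and the like-level genes, of -0.05, was close in size to the spread between libraries. Against the mean of the controls, the median Zfp gene stood at 0.02, -0.07 and 0.04 on the log2 scale in flox controls 1, 2 and 3 and at -0.04, -0.03 and -0.04 in CKO 1, 2 and 3, so that flox control 2 lay below all 3 CKO libraries. The pooled SD between libraries of a group was 0.0449.

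Single fold changes were also set beside those of the like-level genes, with the 167 Zfp genes of 1 to 5 FPKM given apart. The median SE was 0.112 for all 218 and for the 167 Zfp genes and 0.122 for like-level genes. An unadjusted p under 0.05 was found for 47 of all Zfp genes (21.6%), 34 of the 167 (20.4%) and 1067 like-level genes (23.8%). A log2 fold change of at least 1 in size was seen in 5 of all Zfp genes (2.29%), in 1 of the 167 (0.599%) and in 137 like-level genes (3.05%). The 4 others lay above 5 FPKM. Groups did not overlap in 76 Zfp genes, or 34.9%, against 34.3% of all genes tested and 32.2% of like-level genes. CKO lay above the controls in 31 of them (14.2% of Zfp genes, against 16.9% of all and 16.8% of like-level genes) and below in 45 (20.6%, against 17.4% and 15.5%).

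**Figure D2:**
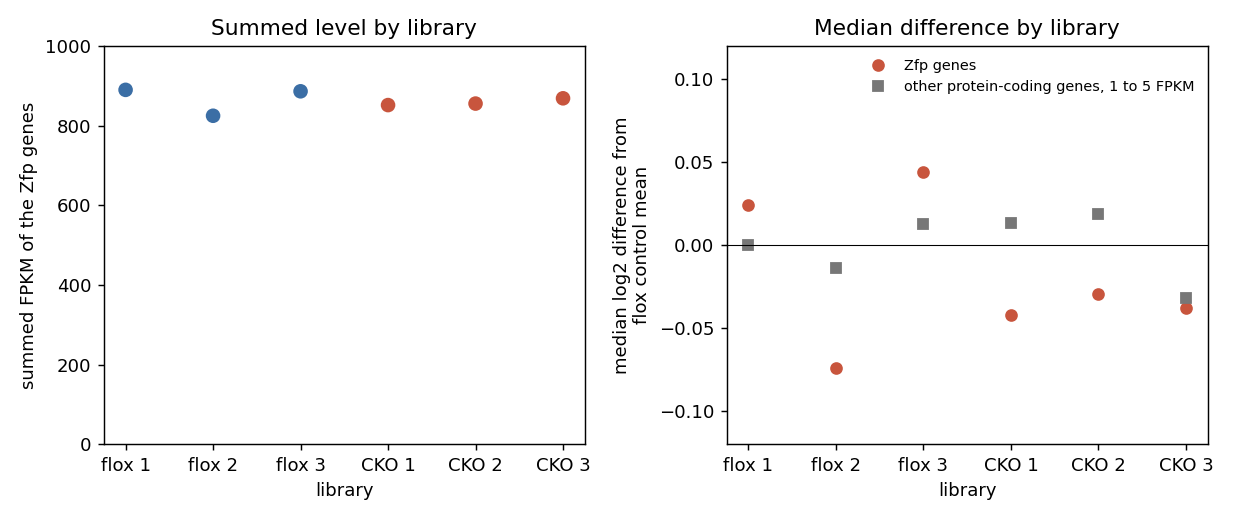
Values of the Zfp class by library, with the summed FPKM of the 218 genes and the median log2 deviation from the control mean for Zfp genes and for other protein-coding genes of 1 to 5 FPKM. The sums run from 825 to 890 FPKM with overlapping groups, and flox control 2 has the lowest Zfp median (-0.07).

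Most of these genes were expressed at a low level. The mean was below 5 FPKM in 167 of the 218 and at least 10 FPKM in 12, with a median of 2.71 FPKM and a highest mean of 27.6 FPKM. Split by level, 2.74% of the 73 Zfp genes at 1 to 2 FPKM were called, against 7.27% of other protein-coding genes there, and 3.19% of the 94 genes at 2 to 5 FPKM, against 10.3%. At 5 to 10 FPKM the share was 15.4% of 39 genes, 4 higher and 2 lower, against 12.2%. Of the 12 genes at 10 FPKM or more 0 were called by limma and 0 by voom on recovered reads. An unadjusted limma p under 0.05 was found for 0 of the 12. Among the 3673 other protein-coding genes at 10 FPKM or more, 13.2% were called by limma. That class has no upper limit, while the highest Zfp mean was 27.6 FPKM, so the levels are not matched. With 12 genes the Zfp share is also coarse. In the range of 1 to 5 FPKM as a whole, 2.99% of 167 Zfp genes were called against 9.27% of like-level genes, with a median of 178 reads against 234. These were 1.2% higher and 1.8% lower, and groups did not overlap in 35.9% of them.

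**Figure D3:**
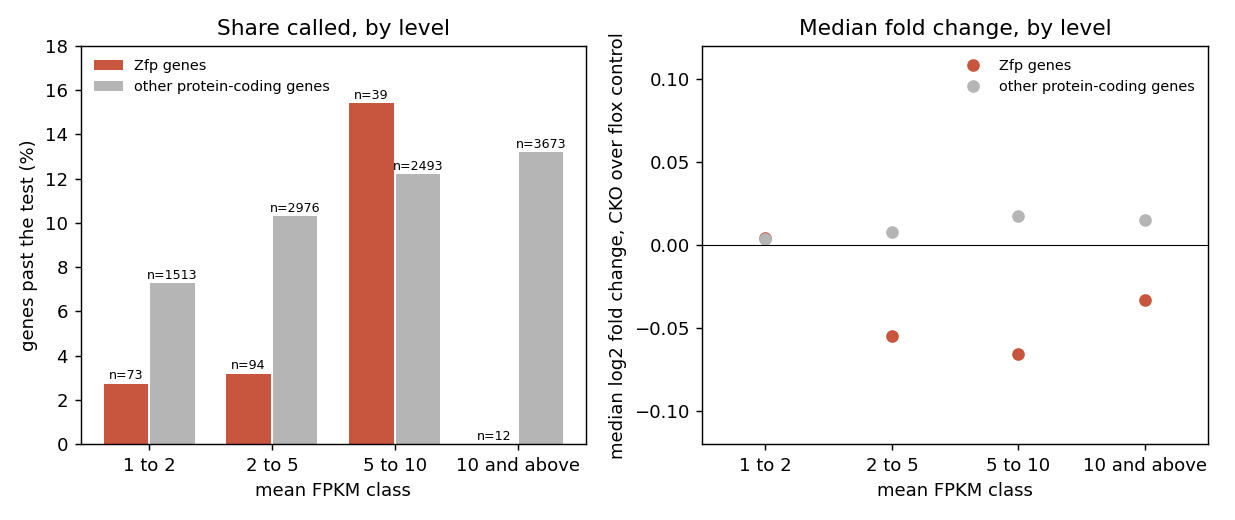
Share of genes called (left) and median log2 fold change (right) in 4 classes of mean FPKM, for Zfp genes and other protein-coding genes. The Zfp share is below the other share at 1 to 2, 2 to 5 and at least 10 FPKM (2.74% against 7.27%, 3.19% against 10.3% and 0% against 13.2%) and above it at 5 to 10 FPKM (15.4% against 12.2%). The class of at least 10 FPKM has no upper limit.

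**Figure D4:**
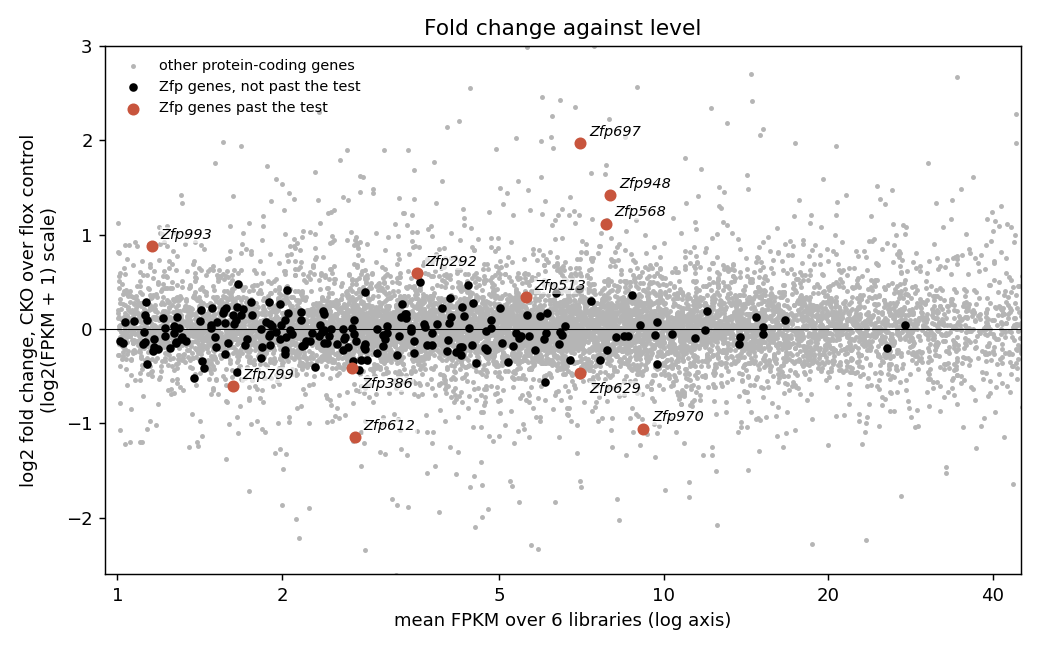
Log2 fold change (CKO over flox control) against mean FPKM on a log axis, with 1 point per gene and axes cropped to the range of the Zfp genes. The 11 called Zfp genes lie between -1.15 and 1.97, and most other Zfp genes lie close to 0.

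The genes of highest level did not pass the test. Zfp706, a small zinc finger protein gene, measured 27.2 ± 0.707 FPKM in the 3 controls, against 28.1 ± 2.81 FPKM in CKO (limma adjusted p = 0.849). Zfp106, an RNA-binding protein needed by motor neurons and muscle, measured 27.4 ± 4.04 and 23.8 ± 3.84 FPKM (adjusted p = 0.461), and 26.1% of its exon bases lie opposite another gene. Zfp651 had means of 16.1 and 17.3 FPKM. Zfp207, which acts at kinetochores and in splicing, measured 15.1 and 15.4 FPKM, and Zfp445 measured 15.5 and 14.9 FPKM. In all 5 genes the groups overlapped.

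Apart from Zfp568 and Zfp697, the genes chosen by name for their known roles did not pass the test. Zfp36 (tristetraprolin), which binds AU-rich elements and promotes messenger RNA decay, measured 9.84, 12.98 and 10.8 FPKM in the 3 controls, against 13.97, 11.2 and 13.3 FPKM in the CKO hearts (limma adjusted p = 0.406). Zfp260, which works with GATA4 at cardiac promoters, measured 8.72, 6.38 and 7.80 FPKM in the 3 controls, against 5.67, 6.35 and 5.52 FPKM in the CKO hearts (log2 fold change -0.33, SE 0.12, adjusted p = 0.134). Its groups are barely separate, with flox control 2 and CKO 2 almost equal. Zfp638, an RNA-binding regulator of adipocyte differentiation, had means of 3.16 and 2.25 FPKM (adjusted p = 0.153), and Zfp366 had means of 5.23 and 3.84 FPKM (0.191).

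Genes of imprinting, silencing and RNA processing were among them. Zfp57, which protects methylated imprinting control regions, measured 2.50 and 2.38 FPKM (limma adjusted p = 0.822), and its partner in that task is Zfp445, given above. Zfp809, which silences murine leukaemia proviruses, measured 4.79 and 4.66 FPKM (0.944). Zfp217, a factor that has been linked to m6A methylation in stem cells, measured 3.20 and 3.55 FPKM (0.616), and Zfp326, which couples transcription to splicing, measured 3.13 and 3.63 FPKM (0.241). Zfp346, a binder of double-stranded RNA, measured 6.44 ± 0.803 and 8.26 ± 1.87 FPKM (0.304), with CKO 2 within the control range. Zfp281, a regulator of pluripotency, Zfp143, a factor of chromatin loops, and Zfp148 were not called either (0.304, 0.966 and 0.410).

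Some genes passed the level limit through a single genotype. In 6 genes only the flox control mean reached 1 FPKM, and in 3 only the CKO mean did. They are Zfp950, Zfp963, Zfp11, Zfp772, Zfp873 and Zfp141 in flox controls, and Zfp993, Zfp462 and Zfp235 in CKO. Of these 9 genes Zfp993 was called.

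The genes were also divided by predicted domains, to be read beside the 11.2% of all genes and 9.27% of like-level genes that were called. A pattern search found the KRAB box in 101 genes, of which 3 were higher and 4 lower, with a median log2 fold change of -0.04. Of 91 genes with no KRAB pattern and at least 3 fingers, 3 were higher and 1 lower (median -0.05). Of 26 genes with at most 2 fingers and no KRAB pattern, 0 were called by limma or voom, 6 had an unadjusted p under 0.05, and the median was -0.01. The search may miss some KRAB boxes, so the classes are approximate.

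The Zfp genes differed from other genes in structure. The coding sequence lay mostly in the last exon, with a median of 82.2% of coding bases there against 11.01% in other protein-coding genes tested, and a median of 5 exons against 9. The linker motif ACNGGNGANAANCC, searched on the coding strand alone within the coding sequence, was in 69.3% of Zfp genes and in 1.01% of other protein-coding genes. GGACT, a common sequence context of m6A, searched on the sense strand alone, occurred 0.807 times per kilobase of transcript (median) against 1.06 in other genes, and was present at least once in 90.4% and 91.6%. A sequence match does not show that a site is modified. Within the 218 genes, rank correlations with the log2 fold change were weak, at -0.137 for the number of fingers, -0.158 for the share of coding bases in the last exon and 0.0504 for GGACT density. These are descriptions over genes that share libraries and sequence, and genes are not independent replicates.

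On the genome the Zfp genes fell into runs of neighbours. Chromosome 7 held 52 of them and chromosome 17 held 31. With neighbours joined at up to 500000 bases, 10 runs of at least 4 genes contained 73 genes, of which 2 were higher and 2 lower, and 96 genes stood alone. Over all 218 Zfp genes 5.05% were called, and over all genes 11.2%. The nearest other expressed Zfp gene of each called gene did not pass the test. These nearest genes lay from 31469 bases (Zfp948) to 14718063 bases (Zfp292) away between start positions, so not all are local neighbours.

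Zfp948 lies in the largest run of chromosome 17, with 16 genes between 21008903 and 23599487, whose log2 fold changes ran from -0.44 to 1.42. Its neighbour Zfp52, 31469 bases away between start positions, measured 1.35, 1.67 and 1.82 FPKM in the 3 controls, against 2.40, 2.14 and 2.90 FPKM in the CKO hearts, and did not pass (limma adjusted p = 0.0834). Zfp53, at 78010 bases, measured 1.52, 1.17 and 0.982 FPKM in the 3 controls, against 2.29, 1.73 and 2.27 FPKM in the CKO hearts, and did not pass (0.0719). In both neighbours the groups were separate, as in Zfp948 and in 34.9% of all Zfp genes and 34.3% of all genes tested. Zfp568 differed from its neighbours: Zfp14 at 52404 bases had a log2 fold change of -0.46 (adjusted p = 0.106) and Zfp74 at 53140 bases one of 0.08 (0.698). Chromosome 8, which holds Zfp612, had 13 negative fold changes among 17 Zfp genes, with a median of -0.15. Chromosome 8 and these neighbours were picked once their values were known.

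**Figure D5:**
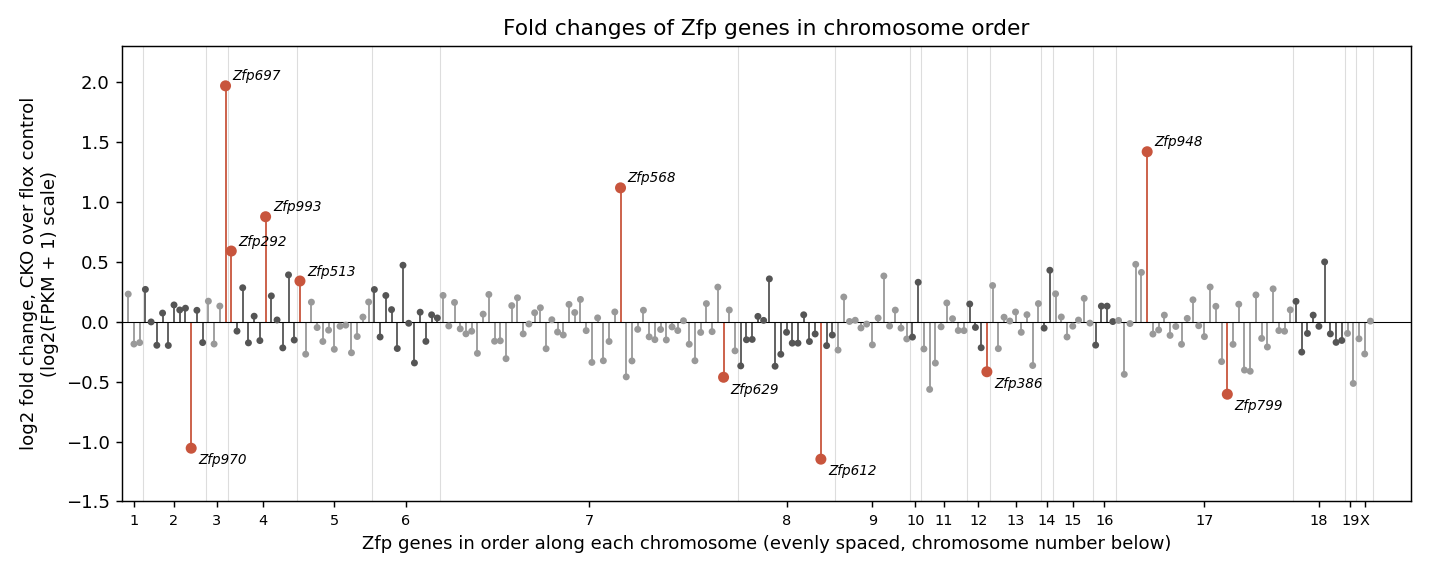
Log2 fold change (CKO over flox control) of the Zfp genes in order along the chromosomes, with called genes marked. The nearest Zfp genes of Zfp568 (1.12) stand at -0.46 and 0.08, and those of Zfp948 (1.42) at 0.41 and 0.48.

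Partners and relatives were read from lists defined by name. Of 35 tested genes of the TRIM28 and SETDB1 silencing machinery, 0 were higher (also by voom) and 1 was lower. The share called was 2.86%, against 11.2% of all genes tested. An unadjusted limma p under 0.05 was found for 7 of the 35, 3 of them higher, against 27.7% of all genes tested. The called gene Dnmt3a, a DNA methyltransferase, fell from 6.71 ± 0.945 to 4.74 ± 0.09 FPKM. Its call was lost without any 1 of the 6 libraries (limma adjusted p 0.0700 to 0.125) and with the replicate block (0.0987). Trim28 measured 22.8 ± 1.74 and 21.04 ± 2.20 FPKM (adjusted p = 0.571). Setdb1 measured 4.76, 4.52 and 4.90 FPKM in the 3 controls, against 5.91, 5.50 and 5.24 FPKM in the CKO hearts, with separate groups but no call (0.172).

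Other families were read beside the 11.2% of all genes called. Of 16 suffixed Zfp genes 0 were called by limma or voom and 0 had an unadjusted p under 0.05, including Zfp36l1 (19.3 ± 6.72 and 25.5 ± 1.96 FPKM) and Zfp36l2 (15.1 ± 2.19 and 18.1 ± 2.18 FPKM), both relatives of Zfp36. Of 47 Zkscan, Zscan and Zbtb genes 2 were higher (4.26%), Zbtb7b at 5.62 and 8.83 FPKM and Zbtb8os at 1.86 and 2.84 FPKM. Zbtb8os entered the list by its name alone and encodes archease, which is not a zinc finger protein, so 1 call belongs to the family. Of 18 Klf, Sp and Egr genes, the growth-response gene Egr2 was higher and Klf2 was lower (57.0 ± 5.12 and 39.0 ± 1.97 FPKM), which is 11.1%. Egr2 averaged 0.470 FPKM in flox controls and 1.95 FPKM in CKO. It passed the level limit through CKO alone, so a difference was favoured by the choice of genes. Of 26 CCCH genes Zc3h7b was lower (3.85%), and of 55 genes of other zinc-binding folds 3 were higher (5.45%), the palmitoyltransferase genes Zdhhc2, Zdhhc5 and Zdhhc9. Zdhhc2 was called with each library left out in turn. Zbtb7b, Zbtb8os and Zc3h7b were lost without any 1 of the 6, and the last 2 also with the replicate block (0.0789 and 0.0958). Egr2 did not pass without control 1 (limma adjusted p = 0.0759), control 2 (0.0634) or CKO 2 (0.0586). Klf2 (0.0472), Zdhhc5 (0.0367) and Zdhhc9 (0.0117) were kept without CKO 1 and lost without any of the other 5. The replicate block also ended the calls of Egr2 (0.0586), Klf2 (0.0767), Zdhhc5 (0.0856) and Zdhhc9 (0.0879), and kept those of Zdhhc2 (0.0321) and Zbtb7b (0.0419).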

How the data were processed

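Per the labels' protocols, poly-A RNA of 6 mouse hearts was made into libraries and sequenced on an Illumina NovaSeq; strand marking is not described. The deposited values are the authors' FPKM for 54532 genes. Per the submitters' processing notes, HISAT2 2.0.5 and featureCounts 1.5.0-p3, besides CASAVA and DESeq2 1.20.0, were used with GRCm38.p6, with no role given for each. FPKM times the deposited gene length gave whole reads within 0.001 in all 6 libraries.

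Genes whose mean reached 1 FPKM were tested with limma 3.58.1 (R 4.3.3) on log2(FPKM + 1), with genotype alone in the model, a trend in the variance and Benjamini-Hochberg adjustment over 12144 genes. With 3 mice per group, each p-value sets the difference between genotypes against the spread between these samples, moderated over all genes tested. Coordinates and exons came from GENCODE release M21 (218 of 218 Zfp genes found, 210 with identical bounds), and finger, linker and KRAB patterns were searched in the coding sequence of its transcripts. Reads of antisense partners cannot be told apart. Only the main limma fit was run on simulated counts. The alternative fits, the pattern searches and the window and overlap counts were not tested in this way.

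The genes and lists were chosen with earlier results of these data known. Genes named are all called Zfp genes, the 5 of highest level, those at the level limit, genes fixed by name for known roles and, in each list, up to 3 called genes; not all are described. Alternatives covered the pseudocount, filter, 3 scalings, gene set, variance model, array weights, voom on the recovered reads, the replicate block and each library left out. Tables were made with Python 3.11.15, numpy 2.4.6 and pandas 2.3.3, and figures with matplotlib 3.10.9. Splicing, polyadenylation and m6A were not analysed here.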

Additional observations from a re-analysis of the deposited data

How the results depend on the processing

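Of the 11 called Zfp genes, Zfp697, Zfp948, Zfp612 and Zfp993 were called in all 17 fits, and none of the 11 changed direction. All genes called numbered 1358, 798 with no filter (more genes tested), 715 with the replicate block and 315 to 1490 with 1 library left out. Zfp genes called higher numbered 6, 3 with no filter and 3 to 5 with 1 library left out. Zfp genes called lower numbered 5, 3 with the same sum of FPKM, 8 with protein-coding genes only (fewer genes tested), 8 with array weights, 2 with the replicate block and 1 to 4 with 1 library left out. Same-numbered samples did not vary together (correlations 0.139, 0.0597 and -0.00548), so the replicate block shares only a number; it left 4 higher and 2 lower Zfp genes. The Zfp median was -0.0946 to -0.0313 with 1 library left out. It was -0.00489 with the same sum, -0.0214 with total reads and -0.0696 with the upper quartile. This median was negative in all 17 fits, but with the same sum it lay close to 0 and 51.8% of Zfp genes were negative. The like-level median was 0.0457 with the same sum, 0.0305 with total reads, -0.0152 with the upper quartile and -0.00914 to 0.0262 with 1 library left out. The Zfp share called was below that of all genes in 16 of 17 fits, the exception being no filter (3.21% against 2.95%). Where no cause is given, the cause was not tested.

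Sign reversals occurred in uncalled genes near 0. With 1 library left out, log2 fold changes ran from -0.00540 (without CKO 1; -7.83e-05 without CKO 3) to 0.122 in Zfp706, from -0.0228 (without flox control 2; -0.0128 without CKO 2) to 0.0673 in Zfp207, and from -0.0381 (without CKO 3; -0.00602 without flox control 3) to 0.0542 in Zfp143. They ran from -0.108 to 0.0305 (without CKO 1) in Zfp445, from -0.221 to 0.109 (without CKO 1) in Zfp57, from -0.0250 (without CKO 2; -0.0247 without flox control 2) to 0.0851 in Zfp384, and from -0.158 to 0.0823 (without flox control 2; 0.0136 without flox control 1, 0.0154 without CKO 3) in Zfp809. Upper quartile scaling gave -0.00378 in Zfp207 and -0.0157 in Zfp143, and Zfp809 gave 0.0279 with the same sum and 0.00973 with total reads. Low reads limit Zfp993 most, with 9 to 50 per library.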
